A study of Homo sapiens with 6 samples.

Results

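The regions described here are stretches of chromatin that carried H3K27me3 in both culture conditions, lay away from protein-coding genes and had no H3K4me3. They were chosen by measured values: an H3K27me3 island of the Vc− list on chromosomes 1 to 22 had to overlap an H3K27me3 island of the Vc+ list, be under 10 kb wide in both lists, lie more than 10 kb from the span of every protein-coding gene, and overlap no H3K4me3 island of either condition. The gene and H3K4me3 limits were applied to the Vc− island, so a wider Vc+ island can lie nearer to a gene or overlap H3K4me3. Of 8893 H3K27me3 islands in the Vc− list, 1306 met the rule (14.7%), and they overlapped 1278 of the 9534 islands of the Vc+ list. Of these 1306 islands, 483 lay more than 5 Mb from the largest gene-free gap of their chromosome, and 823 lay within 5 Mb of it and are described apart. That gap is the longest stretch without a gene of any kind in the gene table, and on most chromosomes it takes in the centromere or the heterochromatin beside it.

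The cells were endothelial cells derived from H1, a human embryonic stem cell line, with H1 also given as the genotype, and their labels give them as GATA2+, GATA2 being a zinc finger factor needed for blood formation. The cultures were labelled Vc+ and Vc−, and the series title gives Vc as vitamin C, a cofactor of enzymes that remove histone methyl groups. Each condition had 3 samples, which were chromatin immunoprecipitated for H3K27me3, chromatin immunoprecipitated for H3K4me3, and an input that was not analysed here. Each mark and condition therefore had 1 library of 1 cell line, so no difference below has a replicate check or a test, and every one of them compares 2 libraries.

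H3K27me3 is the trimethylated lysine 27 of histone H3, written by Polycomb repressive complex 2 and removed by the KDM6 demethylases. The complex is best known for covering CpG-rich promoters of developmental regulators in cells that do not use them, where the mark often stands beside H3K4me3, which marks promoters that are active or poised. Away from promoters H3K27me3 can also cover silent distal elements and gene-poor chromatin, without H3K4me3. The island lists used here come from a window-based caller, so an island is a run of enriched windows of 200 bp and its width is a multiple of 200 bp.

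As a check of the labelled cells, H3K4me3 was looked for within 1 kb of either end of marker genes. It was present at 10 of 10 endothelial markers in Vc+ cells and at 10 of 10 in Vc− cells. Of 6 blood cell markers, 3 had it in Vc+ cells and 2 in Vc− cells, and PTPRC, the pan-leukocyte antigen CD45, had it in neither. Of 4 pluripotency markers, 1 had it in each condition, and POU5F1 and NANOG had it in neither. Of 5 mesenchymal markers, 3 had it in Vc+ cells and 4 in Vc− cells. The 4 lists held 9534 H3K27me3 and 21311 H3K4me3 islands in Vc+ cells, against 8893 and 21583 in Vc− cells. Read depth is not given in the sources used here, so island numbers and widths may move with it, and that was not tested.

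Of the 483 regions away from the gap, 10 (2.07%) held a transcription start of the RefSeq promoter table, as did 3 of the 823 near it. Away from the gap the share was 1.61% for intergenic islands without H3K4me3 in the Vc+ list alone and 1.72% for those in the Vc− list alone, and 14.9% for shared intergenic islands with H3K4me3. All 13 starts belonged to genes other than protein-coding ones, as the rule requires. The 6 in the regions with the best score ranks are shown, because a promoter is the element on which Polycomb is usually described, and here H3K27me3 stood at these starts with no H3K4me3 island over them. Each line gives 300 bases of GRCh38 patch 14 from RefSeq, 250 before the start and 50 after it, read 5′ to 3′ along the gene, with every CpG in capitals (CG, which reads the same on both strands).

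LINC02729, - strand, chr11:17696890-17697189: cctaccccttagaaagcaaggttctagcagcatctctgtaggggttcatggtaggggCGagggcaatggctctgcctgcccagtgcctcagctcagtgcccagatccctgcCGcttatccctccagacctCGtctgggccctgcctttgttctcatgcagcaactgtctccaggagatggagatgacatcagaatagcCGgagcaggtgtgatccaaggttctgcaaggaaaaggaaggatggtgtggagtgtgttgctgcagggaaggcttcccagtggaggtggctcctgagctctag
LINC01163, + strand, chr10:128285700-128285999: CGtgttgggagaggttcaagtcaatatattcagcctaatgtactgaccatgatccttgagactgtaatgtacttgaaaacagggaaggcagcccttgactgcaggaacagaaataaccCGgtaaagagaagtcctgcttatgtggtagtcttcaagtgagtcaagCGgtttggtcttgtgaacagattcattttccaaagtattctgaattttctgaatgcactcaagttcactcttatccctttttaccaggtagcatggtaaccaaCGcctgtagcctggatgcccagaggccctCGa
LOC107987009, - strand, chr9:63443343-63443642: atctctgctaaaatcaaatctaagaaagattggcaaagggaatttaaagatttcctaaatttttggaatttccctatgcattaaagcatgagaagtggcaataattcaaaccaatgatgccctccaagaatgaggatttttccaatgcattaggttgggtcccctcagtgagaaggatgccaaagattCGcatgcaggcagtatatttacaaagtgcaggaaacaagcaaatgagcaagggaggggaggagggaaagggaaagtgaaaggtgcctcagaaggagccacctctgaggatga
LOC644634, + strand, chr1:149701959-149702258: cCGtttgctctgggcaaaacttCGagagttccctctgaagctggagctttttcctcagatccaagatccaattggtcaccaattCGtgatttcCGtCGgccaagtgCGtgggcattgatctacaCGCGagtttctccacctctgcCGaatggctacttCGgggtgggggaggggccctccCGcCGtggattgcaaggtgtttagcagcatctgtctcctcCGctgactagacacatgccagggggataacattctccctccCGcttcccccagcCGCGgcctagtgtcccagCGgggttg
LINC02440, - strand, chr12:118774556-118774855: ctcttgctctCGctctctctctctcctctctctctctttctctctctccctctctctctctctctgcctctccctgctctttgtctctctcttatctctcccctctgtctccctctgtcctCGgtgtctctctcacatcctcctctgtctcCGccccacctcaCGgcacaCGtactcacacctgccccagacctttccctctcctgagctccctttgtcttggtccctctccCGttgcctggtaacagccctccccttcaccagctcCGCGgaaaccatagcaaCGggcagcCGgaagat
LOC124901093, + strand, chr5:141705551-141705850: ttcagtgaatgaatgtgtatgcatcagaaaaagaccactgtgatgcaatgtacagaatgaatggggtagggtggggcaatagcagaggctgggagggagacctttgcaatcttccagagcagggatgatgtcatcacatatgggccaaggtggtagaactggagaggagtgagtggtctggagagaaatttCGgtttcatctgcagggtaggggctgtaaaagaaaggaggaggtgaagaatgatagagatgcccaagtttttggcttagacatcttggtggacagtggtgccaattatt

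The 6 sequences differ in CpG number. LOC644634 on chromosome 1 had 17 CpGs in 300 bases and LINC02440 had 10, against 5 in LINC01163, 4 in LINC02729, and 1 each in LOC107987009 and LOC124901093. Over all 13 starts the median was 4 CpGs, and 4 of the 13 (30.8%) had 10 or more. All 33725 promoter entries had a median of 14, with 10 or more in 56.3%, and the 12569 entries of long non-coding RNA genes had a median of 5, with 10 or more in 33.0%. The starts in these regions were thus no richer in CpG than those of non-coding genes in general. The 457 starts that lay in H3K27me3 islands of both lists and in no H3K4me3 island, at any distance from protein-coding genes, had a median of 10 CpGs, with 10 or more in 52.3%. The 2194 starts that lay in H3K27me3 islands of both lists and also in an H3K4me3 island had a median of 28 CpGs.

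Some of these starts sat close to the limits of the rule. Distances to H3K4me3 were measured from the Vc− island. That over LOC644634 lay beside H3K4me3, at 0.401 kb in Vc+ cells and directly adjoining in Vc− cells. The Vc− island over LOC124901093 adjoined an H3K4me3 island of Vc+ cells, and H3K4me3 of Vc− cells lay 0.401 kb away. The H3K27me3 island of Vc+ cells there was wider, chr5:141700601-141706800, and so overlapped that adjoining H3K4me3 island in Vc+ cells. At LOC107987009 the start was inside the Vc− island but outside the Vc+ island, which began at position 63445201 of chromosome 9. The other 3 printed starts were inside the islands of both conditions, with the nearest H3K4me3 island more than 20 kb away: LINC01163 at 74.2 kb in Vc+ cells and 74.0 kb in Vc− cells, LINC02729 at 21.4 kb in Vc+ cells and 21.2 kb in Vc− cells, and LINC02440 at 203.0 kb in Vc+ cells and 203.2 kb in Vc− cells.

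A single microRNA gene lay in the regions. MIR650 (chr22:22822776-22822871) stands among the variable segments of the immunoglobulin lambda locus, inside the Vc− island chr22:22822401-22827200 and outside the Vc+ island chr22:22823601-22828200. Its mature sequence from RefSeq is given with the seed, bases 2 to 8, in capitals.

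hsa-miR-650: aGGAGGCAgcgcucucaggac

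Most regions held no annotated gene at all. Away from the gap, 332 of 483 (68.7%) overlapped no gene of any kind in the table, 98 (20.3%) overlapped a long non-coding RNA gene and 36 (7.45%) a pseudogene. For comparison, intergenic space was sampled away from the gap with windows of 3.2 kb, the median width of these islands in the Vc− list, every 10 kb. Of 114705 such windows, 27.6% overlapped a long non-coding RNA gene, 3.67% a pseudogene and 69.0% no gene. The 343 shared intergenic islands away from the gap that did overlap H3K4me3 lay at a long non-coding RNA gene in 30.03% of cases, at a pseudogene in 19.8% and at no gene in 53.1%.

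The regions away from the gap lay nearer to protein-coding genes than intergenic space does on average. Their median distance to the nearest protein-coding gene was 71.3 kb, against 138.6 kb for the intergenic windows. They lay on the upstream side of that gene in 175 cases and on the downstream side in 181, and for the rest the strand of the gene was not in the promoter table. Shared intergenic islands with H3K4me3 lay nearer still, with a median of 45.9 kb. Near the gap the median was 1260 kb, where the gap itself holds no gene by definition.

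**Figure D1:**
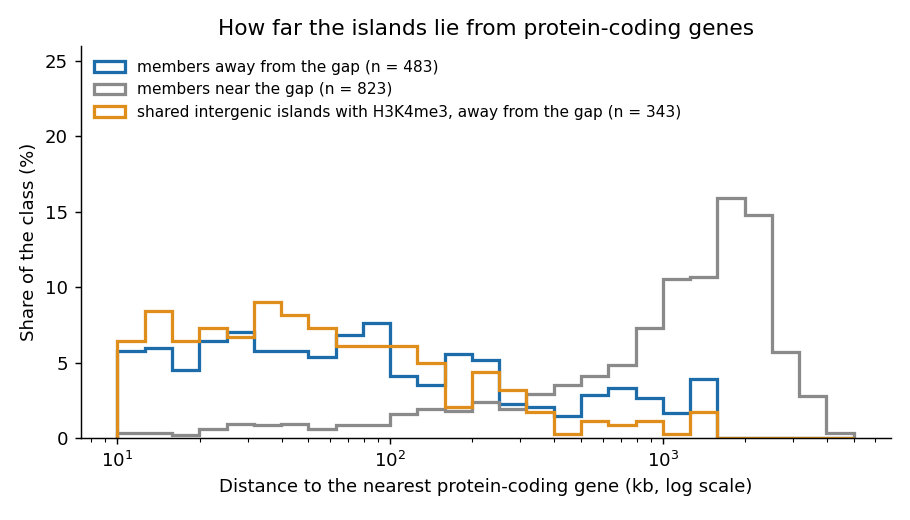
Distance from each island to the nearest protein-coding gene (kb, log scale) against the share of each class (%), for the 483 regions away from the gap, the 823 near it and the 343 shared intergenic islands with H3K4me3 away from the gap. The regions near the gap form a broad peak around 1000 kb and beyond, while the other classes peak below 100 kb.

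Developmental transcription factors stood next to these regions more often than next to intergenic space at large. Of the 483 regions away from the gap, 53 (11.0%, exact 95% interval 8.33 to 14.1, counting error only) had such a factor as the nearest protein-coding gene, against 4.26% of the intergenic windows. The list holds 325 of 18973 protein-coding genes (1.71%). It was made from symbol prefixes of families such as HOX, SOX, FOX, GATA, TBX, PAX and PRDM, with some single genes added. It is not a full catalogue, and MYOD1, for example, is not in it. The 53 regions were nearest to 43 different genes, so few loci repeated: NR2F2 had 5 regions, NR2F1 and HOXC13 had 3 each, and TBX5 and TBX18 had 2 each. By family, forkhead genes had 9, the NR2F pair 8 and T-box genes 6.

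The same neighbourhood was found for intergenic islands that the rule left out. A developmental transcription factor was nearest to 8.75% of the 343 shared intergenic islands with H3K4me3 (5.98 to 12.3), to 9.03% of the 808 intergenic islands without H3K4me3 present in the Vc+ list alone (7.15 to 11.2) and to 12.4% of the 348 present in the Vc− list alone (9.09 to 16.3). These intervals overlap that of the shared regions, and closeness to developmental factors is not called particular to islands that the conditions share or that lack H3K4me3. Adjacent islands share a nearest gene and are not independent, so the intervals are narrower than they would be over loci.

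The genes next to the regions were themselves often marked. Of the 43 developmental factors, 30 had a start in the promoter table, and 27 of the 30 (90.0%) had H3K27me3 within 1 kb of a start in Vc+ cells and 27 in Vc− cells. Over the 222 factors of the whole list with a start, 72.1% were marked in Vc+ cells and 69.8% in Vc− cells. Over all 235 nearest genes with a start, 94 (40.0%) carried H3K27me3 in Vc+ cells and 84 (35.7%) in Vc− cells, against 15.7% in Vc+ cells and 14.3% in Vc− cells of 15101 protein-coding genes. H3K4me3 at the same starts was near the background: 179 of 235 (76.2%) in Vc+ cells and 176 (74.9%) in Vc− cells, against 74.7% in Vc+ cells and 74.3% in Vc− cells of all genes. The regions thus lay beside genes whose starts had H3K27me3 more often, and H3K4me3 about as often, as the average gene. For shared intergenic islands with H3K4me3 away from the gap, 214 nearest genes had a start. Of these 214, 31.3% carried H3K27me3 in Vc+ cells and 29.4% in Vc− cells. H3K4me3 stood at 76.6% of them in Vc+ cells and 74.8% in Vc− cells. The larger share of starts with H3K27me3 is therefore not called particular to the regions.

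Wide Polycomb domains were near some of them. An H3K27me3 island of 10 kb or more in the Vc− list lay within 50 kb of 72 of the 483 regions (14.9%). The share was 9.91% for shared intergenic islands with H3K4me3, 17.9% for intergenic islands without H3K4me3 in the Vc+ list alone, with wide islands taken from that list, and 12.1% for those in the Vc− list alone, so that of the regions lies within the range of these classes. Among the 53 regions next to a developmental factor 27 had such a domain within 50 kb, against 45 of the 430 regions with another nearest gene. The regions next to developmental factors were also nearer to their gene, at a median of 49.0 kb against 71.7 kb.

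**Figure D2:**
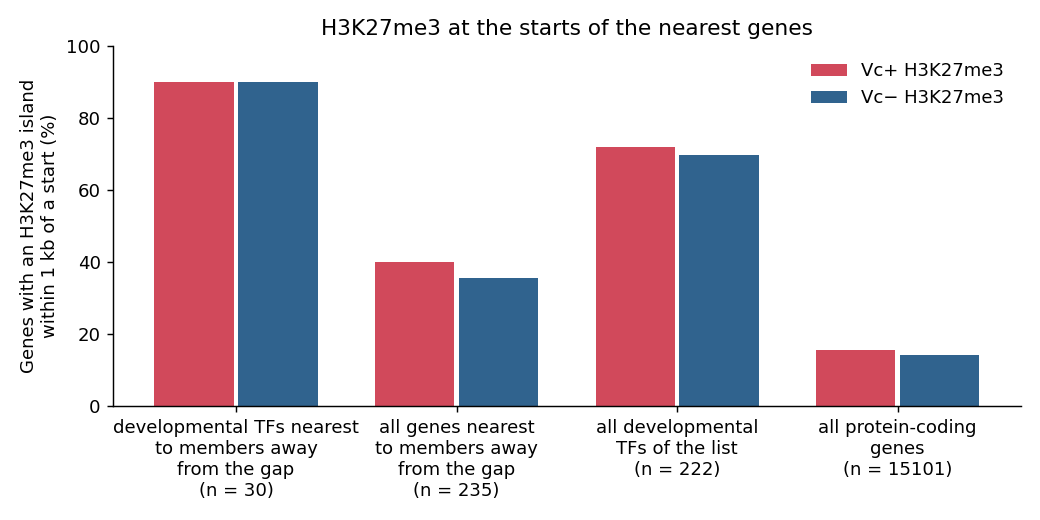
Share of genes (%) with an H3K27me3 island within 1 kb of an annotated start in the Vc+ library (left bar of each pair) and the Vc− library (right bar), for developmental transcription factors (TFs) nearest to regions away from the gap, all genes nearest to them, all such factors of the list and all protein-coding genes, with the number of genes that have a start in brackets. The bars stand at 90.0% in both conditions for the first group and at 15.7% in Vc+ cells and 14.3% in Vc− cells for all protein-coding genes.

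The score of an island is the authors', read here as a false discovery rate on a −log10 scale, and was used to rank islands inside each list only. The regions away from the gap had a median score of 11.1 in the Vc+ list, where the median of all 9534 islands is 10.3, and of 8.02 in the Vc− list, where that of all 8893 is 10.0. Their medians thus stood near those of the lists. Their upper quartiles were lower, at 17.5 against 29.9 in the Vc+ list and 13.7 against 30.3 in the Vc− list. In the Vc+ list a region takes the highest score of the islands it overlaps, and 1 island can count for several regions. The highest scores of the regions were 105.7 in the Vc+ list and 84.4 in the Vc− list, while the whole lists reach 1000. Shared intergenic islands with H3K4me3 had medians of 23.0 in the Vc+ list and 20.7 in the Vc− list.

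The 12 regions with the best mean rank over both lists lay at loci of several kinds. The first stood 16.8 kb downstream of CLEC4M, which encodes a lectin receptor of liver and lymph node sinusoidal endothelium, at chr19:7786401-7791400. Its island was 9.8 kb wide in Vc+ cells and 5.0 kb in Vc− cells, and it ranked 648 of 9534 in the Vc+ list and 994 of 8893 in the Vc− list. The Vc+ island overlapped more than 1 Vc− island, so its width covers more than this region.

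Regulators of muscle, limb, lung and forebrain were among the neighbours. The region at chr11:17689401-17697800 lay 21.8 kb from MYOD1, the master regulator of skeletal muscle, and covered the start of LINC02729 printed above. It was 9.4 kb wide in Vc+ cells, in 2 islands, and 8.4 kb in Vc− cells. At PITX1, a homeobox gene of hindlimb identity, the region chr5:135048801-135053200 lay 14.01 kb upstream within the antisense transcript PITX1-AS1. It measured 6.8 kb in Vc+ cells and 4.4 kb in Vc− cells, with H3K4me3 islands 8.60 kb away in Vc+ cells and 14.2 kb in Vc− cells. The conditions thus differed more in width at PITX1 than near MYOD1, in 1 library each.

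Some neighbours lay farther off. The region chr16:86276201-86280200 lay 230.3 kb from FOXF1, a forkhead factor of lung and gut mesenchyme, within the non-coding gene LINC01081, and measured 3.8 kb in Vc+ cells and 4.0 kb in Vc− cells. The region chr12:113609001-113614000 lay 137.1 kb from LHX5, a LIM-homeobox gene of the forebrain, and measured 6.4 kb in Vc+ cells and 5.0 kb in Vc− cells. LMX1A, which patterns the roof plate and midbrain, was outside the 12 and had a region 81.1 kb downstream that measured 5.6 kb in Vc+ cells and 6.6 kb in Vc− cells.

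Others of the 12 had no developmental factor beside them. The region near USP29, a deubiquitinase gene of the imprinted PEG3 domain, lay 10.9 kb upstream and measured 4.4 kb in Vc+ cells and 3.0 kb in Vc− cells. Near CBLN2, which encodes a secreted organiser of synapses, the island spanned 9.2 kb in Vc+ cells and 6.6 kb in Vc− cells, at 93.1 kb downstream. The 5 remaining regions lay near ANKRD20A1, ARAP3, CPXM2, FAM240C and GOLGA8T. Of the 12 regions, 10 matched 1 island in each direction, and 8 of these were wider in Vc+ cells and 2 in Vc− cells. Over all 361 regions away from the gap that matched in this way, 65.7% were wider in Vc+ cells by any amount, against 64.8% of all matched islands.

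**Figure D3:**
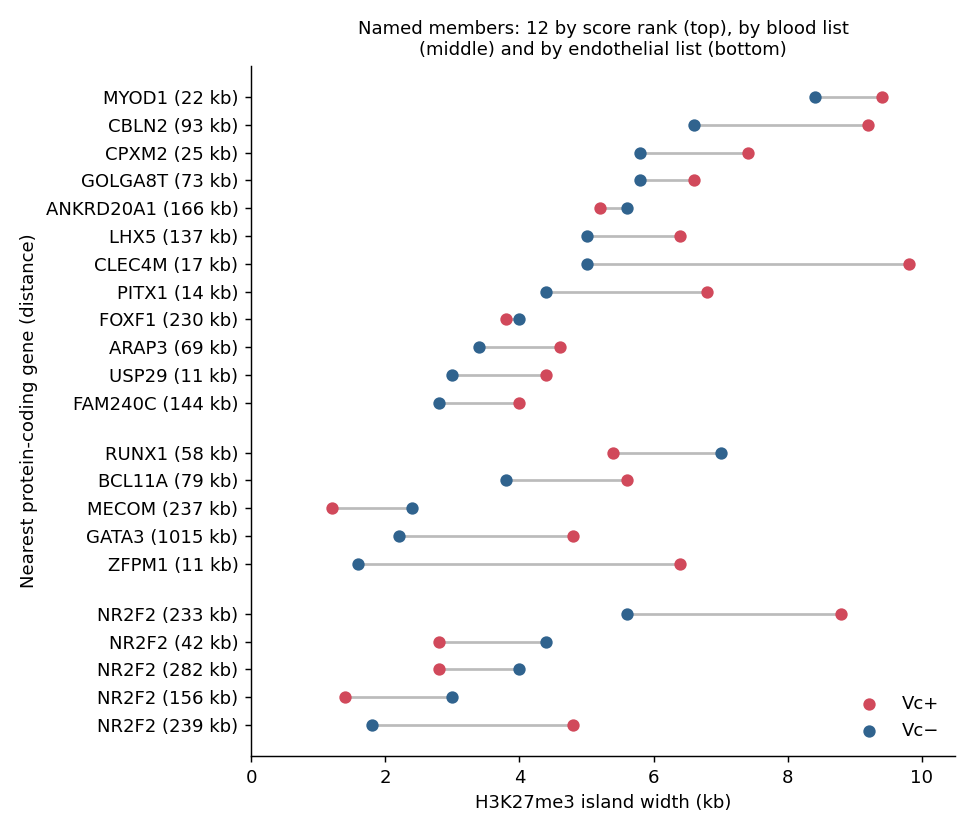
H3K27me3 island width (kb) in the Vc+ library (red) and the Vc− library (blue) for the 12 regions away from the gap with the best score ranks, the 5 next to blood regulators and the 5 next to NR2F2, labelled by the nearest protein-coding gene and its distance. The red point lies right of the blue one for CLEC4M, at 9.8 kb against 5.0 kb, and left of it for RUNX1, at 5.4 kb against 7.0 kb.

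Of 25 blood regulators on these chromosomes 5 (20.0%) were nearest to a region, with 1 region each. Of all 18973 protein-coding genes, 372 (1.96%) were nearest to a region. Over all 1306 regions, 46 of the 325 developmental transcription factors were nearest to a region, GATA3 of the blood list among them. RUNX1, the transcription factor required for the endothelial-to-haematopoietic transition, had the region chr21:35107801-35114800 at 58.5 kb upstream of its span. The island there was 5.4 kb wide in Vc+ cells and 7.0 kb in Vc− cells, ranked 3965 of 9534 in the Vc+ list and 2872 of 8893 in the Vc− list, and the nearest H3K4me3 island lay 215.8 kb away in Vc+ cells and 216.0 kb in Vc− cells.

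In the Vc− list the other 4 regions had scores of 2.21 to 11.7, below the 20.8 at RUNX1, while in the Vc+ list ZFPM1 had 20.7 and RUNX1 13.9. At ZFPM1, which encodes the GATA cofactor FOG1, the region chr16:88547801-88549400 lay 10.8 kb downstream, close to the limit of 10 kb. It measured 6.4 kb in Vc+ cells and 1.6 kb in Vc− cells. The Vc+ island began at position 88543601, nearer to ZFPM1, so part of it lay inside the 10 kb margin. Near BCL11A, a repressor of fetal globin, the island was 5.6 kb wide in Vc+ cells and 3.8 kb in Vc− cells. MECOM, a regulator of blood stem cells, had 1.2 kb in Vc+ cells and 2.4 kb in Vc− cells at 236.7 kb from the gene. The region assigned to GATA3, a T lymphocyte regulator, lay 1015 kb from it. Across the 5 loci the island was wider in Vc+ cells at BCL11A, GATA3 and ZFPM1 and wider in Vc− cells at MECOM and RUNX1. The ratios of Vc+ to Vc− width at BCL11A and RUNX1, 1.47 and 0.771, did not reach the fold of 1.5 used as the call. Of all matched regions away from the gap, 65.7% were wider in Vc+ cells by any amount, against 64.8% of all matched islands. With 5 loci, no direction particular to the blood list is called.

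Of 20 endothelial genes 1 (5.00%) was nearest to a region, against the 1.96% of all protein-coding genes, and this gene, NR2F2, had 5 regions. NR2F2 encodes COUP-TFII, the nuclear receptor that specifies venous endothelium. On the upstream side, 4 regions were spread from 156.4 to 282.4 kb away within non-coding genes that include NR2F2-AS1, and 1 lay 42.1 kb downstream. The region chr15:96087401-96093000 had the highest score in the Vc− list, at 24.0, and 12.6 in the Vc+ list, and measured 8.8 kb over 2 islands in Vc+ cells and 5.6 kb in Vc− cells. Widths at the other 4 ranged from 1.4 to 4.8 kb in Vc+ cells and from 1.8 to 4.4 kb in Vc− cells. The region next to it, chr15:96084801-96086600, shares 1 of its Vc+ islands, so the 2 are not separate in Vc+ cells.

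The regions away from the gap were spread over 277 intervals between neighbouring protein-coding genes, of which 203 held a single region and 66 held 2 to 5. A further 8 intervals held 117 of the 483 regions. The fullest lay on chromosome 21 between TPTE and POTED with 44 regions, none of which overlapped a gene. That interval spans the centromere of chromosome 21, whose largest gene-free gap by the table is the start of the short arm, so these 44 regions were counted as away from a gap although they lie beside a centromere. The next was on chromosome 9 between LOC124902171 and ZNF658, with 19 regions in 202.8 kb. The first of these lay 5.04 Mb from the gap, just past the limit of 5 Mb, on the chromosome that holds 245 of the regions near a gap. Without the 3 fullest intervals, 402 regions remained, of which 53 (13.2%) were nearest to a developmental factor.

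The third of these intervals was of another kind. On chromosome 22, 18 regions stood between GGTLC2 and IGLL5, and together with neighbours they form a run across the immunoglobulin lambda locus, which B lymphocytes rearrange and other cells leave silent. In the stretch chr22:22026076-22922913, which holds 87 lambda gene segments, 32 regions were found, and 12 of them overlapped a segment. Their median width, over all 32 and every matching Vc+ island, was 5.9 kb in Vc+ cells and 3.2 kb in Vc− cells. Counted over every match, the 483 regions away from the gap had medians of 4.8 kb in Vc+ cells and 3.2 kb in Vc− cells. In both counts 1 Vc+ island can enter several times. Median scores were 17.2 in the Vc+ list and 9.94 in the Vc− list, where the medians of all islands are 10.3 in the Vc+ list and 10.0 in the Vc− list. The stretch held 69 H3K27me3 islands in Vc+ cells and 58 in Vc− cells, and 2 H3K4me3 islands in each. Immunoglobulin segments are not counted as protein-coding in the gene table, and so the rule treats the locus as intergenic.

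Regions often came close together. Another region lay within 50 kb of 241 of the 483 regions away from the gap (49.9%) and of 164 of the 402 left without the 3 fullest intervals (40.8%). Of the 343 shared intergenic islands with H3K4me3, 82 (23.9%) had another island of their own class within 50 kb, a share that also depends on class size. Any other H3K27me3 island of the Vc− list lay within 50 kb of 56.9% of these 343 and of 77.2% of the 483 regions. Of the 483 regions, 85 shared their Vc+ island with another Vc− island, so some neighbours are parts of 1 Vc+ island. The next H3K4me3 island of either condition was a median of 31.8 kb away, was within 1 kb of 26 regions and within 5 kb of 67, and was more than 100 kb away for 122 (25.3%).

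Width is the only property of an island that both lists give on the same scale. Of the 1306 regions, 994 matched exactly 1 island in each direction, while 89 overlapped more than 1 Vc+ island and 223 shared their Vc+ island with another Vc− island. Over the matched regions away from the gap, the median width was 4.2 kb in Vc+ cells and 3.0 kb in Vc− cells, and the median ratio of Vc+ to Vc− width was 1.25. Over all 4836 islands matched in this way the medians were 4.4 kb in Vc+ cells and 3.6 kb in Vc− cells, with a ratio of 1.17.

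A ratio of 1.5 or more was reached by 132 of 361 matched regions away from the gap (36.6%) and by 254 of 633 near it (40.1%), against 28.3% of all matched islands. A ratio of 1/1.5 or less was found for 35 regions away from the gap (9.70%) and 74 near it (11.7%), against 7.57%. Among all matched islands under 10 kb in both lists, 29.0% were wider in Vc+ cells and 8.16% in Vc− cells by this fold. Of the 445 matched islands without H3K4me3 that lay at genes, under 10 kb and away from the gap, 36.6% were wider in Vc+ cells and 9.21% in Vc− cells. With H3K4me3, the shared intergenic islands were wider in Vc+ cells in 26.5% and in Vc− cells in 5.75%. Shares close to those of the regions were therefore also seen at genes, in islands without H3K4me3, and the larger share is not called particular to intergenic regions. Both lists differ in total island number and the libraries in unknown depth, and the part these play in the widths was not tested.

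**Figure D4:**
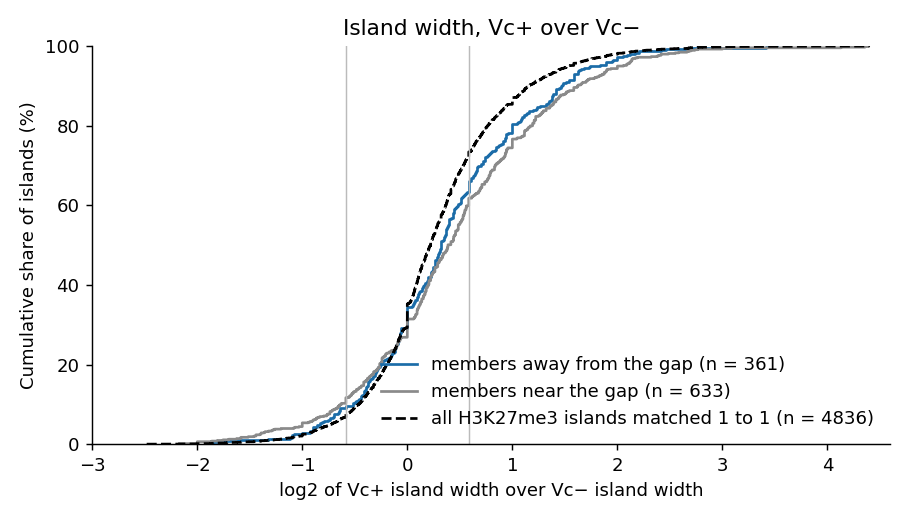
Cumulative share of matched islands (%) by the log2 ratio of Vc+ to Vc− width, for 361 regions away from the gap, 633 near it and all 4836 matched H3K27me3 islands (dashed), with grey lines at a ratio of 1.5 in either direction. The curves of the regions run below the dashed one on the right side, with 36.6% and 40.1% past the right line, against 28.3%.

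At the ends of the range widths differed many-fold, from islands of very few windows. The largest ratio away from the gap was at chr7:155329601-155330000, where the Vc+ island was 4.6 kb and the Vc− island 0.4 kb, near INSIG1, which restrains cholesterol synthesis. The other regions with the largest ratios were near the gap or beside the centromere of chromosome 21, and had Vc− islands of 0.2 to 0.6 kb. In the other direction the largest was at chr13:17348001-17351600, near the gap, with 0.8 kb in Vc+ cells and 3.6 kb in Vc− cells. The widest island of the Vc− list among the regions away from the gap, at chr10:93835001-93844600 near LGI1, measured 5.4 kb in Vc+ cells and 9.6 kb in Vc− cells.

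The 823 regions near the gap differed from those away from it, largely in ways that other intergenic islands near the gap shared. Of these, 743 (90.3%) overlapped no gene, which follows largely from the gap being free of genes by definition. Near the gap, 84.0% of shared intergenic islands with H3K4me3 also overlapped no gene. Of intergenic islands without H3K4me3 near the gap, 94.1% in the Vc+ list alone and 95.4% in the Vc− list alone did so. The regions near the gap had median scores of 4.49 in the Vc+ list and 4.40 in the Vc− list, below the medians of both whole lists. Shared intergenic islands with H3K4me3 near the gap had medians of 5.96 in the Vc+ list and 5.64 in the Vc− list. Those without H3K4me3 in 1 list alone had 3.59 in the Vc+ list and 3.73 in the Vc− list. Over the 633 regions near the gap that matched 1 island in each direction, the median width was 3.6 kb in Vc+ cells and 2.8 kb in Vc− cells. Another H3K27me3 island of the Vc− list lay within 50 kb of 97.1% of the regions near the gap, against 77.2% of the regions away from it. Near the gap the share was 90.7% for shared intergenic islands with H3K4me3. It was 91.6% for intergenic islands without H3K4me3 in the Vc− list alone. For those in the Vc+ list alone it was 90.0%, with neighbours taken from that list. Chromosome 9 alone held 245 of the 823, and 136 of these stood in the interval that takes in the centromere and the large heterochromatic block of that chromosome. Chromosomes 20 and 22 followed with 67 and 60. How reads that match several places were placed is not given in the sources used here, and repeats are common in such chromatin, so the part this plays was not tested. The same limit holds for regions counted as away from the gap. Among these are the 44 beside the chromosome 21 centromere and the 19 between LOC124902171 and ZNF658 on chromosome 9.

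**Figure D5:**
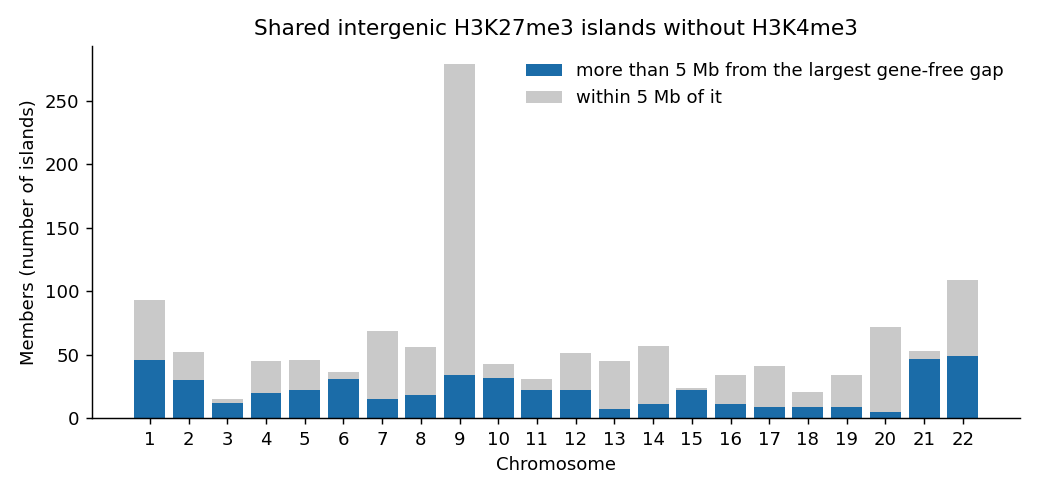
Number of regions on each chromosome, split into those more than 5 Mb from the largest gene-free gap (blue) and those within 5 Mb of it (grey). Chromosome 9 stands out with 279 regions, of which 245 are grey, and the blue bars of chromosomes 21 and 22, with 47 and 49, include the runs beside the chromosome 21 centromere and at the immunoglobulin lambda locus.

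Some regions near the gap nevertheless ranked well. The region chr9:41676401-41682000 near CNTNAP3B scored 46.2 in the Vc+ list and 53.0 in the Vc− list, and measured 5.4 kb in Vc+ cells and 5.6 kb in Vc− cells. The region chr9:40348001-40354600 was assigned to FOXD4L6 at a distance of 771.8 kb and measured 8.4 kb in Vc+ cells and 6.6 kb in Vc− cells. That gene belongs to a group of near-identical FOXD4-like copies on chromosome 9. It was nearest to 35 of the 42 regions near the gap with a developmental factor as nearest gene, FOXD4L5 to 4 and PAX1 to 3, so these counts come from few loci at long distance. The regions farthest from any protein-coding gene, on the short arm side of chromosome 22, lay between 3920 and 4583 kb from OR11H1 with scores from 2.43 to 5.16 in the Vc+ list and from 2.05 to 8.77 in the Vc− list.

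The limits of the rule cut through a continuous range. The region nearest to a protein-coding gene lay 10.035 kb away and the nearest island left out 9.784 kb. The widest included had 9.8 kb in its wider list and the next left out 10.0 kb. The region that came closest to the gap distance from within lay 4.97 Mb from it, and the nearest outside 5.04 Mb. Regions directly adjoined H3K4me3 islands at the last limit, where overlap with H3K4me3 left out 675 islands: 124 with H3K4me3 in Vc+ cells alone, 110 in Vc− cells alone and 441 in both.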

How the data were processed

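The submitters profiled H3K27me3 and H3K4me3 by chromatin immunoprecipitation and sequencing in GATA2-positive endothelial cells derived from H1, and deposited 1 island list for each mark and condition; the inputs were not used. The submitters' processing notes name the tools Bowtie2, SICER and deepTools and the builds hg38 and GRCh38, without saying what each did. The deposited score was read as a false discovery rate on a −log10 scale, since values run from 2.00 to 309.1 and then 1000, and it was never compared between libraries. Read depth, the control used in calling and the treatment of reads with several matches are not given in the sources used here. File names and sample labels disagree on the condition of each library. Groups follow the labels, so every direction between Vc+ and Vc− rests on them. The series design text speaks of GATA2-negative cells, which no label names, and the protocol names antibodies to H3K27me3 only.

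Genes came from a RefSeq table of GRCh38 patch 14. From its chromosomes 1 to 22, 676 rows, 153 of them protein-coding, were left out because the row order showed that their positions refer to other scaffolds, which left 56080 genes, 18973 of them protein-coding. Of these, 15101 had a start in the RefSeq promoter table. Distances from islands to protein-coding genes are to the gene span for every gene, and those of the regions are taken from the Vc− island. Exons, introns and untranslated regions were not told apart. Coordinates count from 1. Overlap meant at least 1 bp. Distance to the gap was measured from the longest stretch without a gene of any kind, chromosome starts included. Counts and medians of width were compared over islands that match exactly 1 island in each direction. For single named regions the width is given for every match, with several Vc+ islands summed. A fold of 1.5 in width was used as the call. Members, gene lists and the naming rule were chosen with earlier results of these data known. Regions were named where they ranked among the 12 best by mean score rank, had extreme widths or width ratios, overlapped a microRNA gene or a start, lay next to a listed gene, lay farthest from genes or stood near the gap with the best ranks. With 1 library per mark and condition no test was made, and exact binomial intervals cover counting error only. Analyses used Python 3.11.15, numpy 2.4.6, pandas 2.3.3, scipy 1.17.1 and matplotlib 3.10.9. The member count was checked against bedtools 2.31.1, which also gave 1306. In a test on simulated data, 200 of 200 planted islands were found. Among rule-breaking ones, 0 of 100 with H3K4me3, 0 of 100 in 1 list only and 0 of 100 too wide were called. All were built to meet or break the rule, so this checks the code only. They lay well outside the gene margin and away from real islands, so that margin was not tried.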

Additional observations from a re-analysis of the deposited data

How the results depend on the processing

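No paired analysis was possible because there was 1 library for each mark in each condition, and leaving out a replicate was not possible for the same reason. The 7 counts given were recomputed in 75 combinations of count and setting, and 43 stayed within 1.5 times the value given: 1306 regions, 483 away from the gap, 386 wider in Vc+ cells, 109 wider in Vc− cells, 95 next to a developmental factor, 135 at a non-coding RNA gene and 879 within 50 kb of another region. In that order, a score of at least 10 in both lists gave 206, 142, 44, 19, 28, 46 and 78, an overlap of at least 50% of both islands gave 631, 266, 113, 56, 58, 78 and 307, and a width under 5 kb gave 709, 239, 193, 69, 44, 57 and 362. All 3 keep fewer islands by construction. With a gene margin of 50 kb, 283 regions lay away from the gap and 89 at a non-coding RNA gene. With long non-coding RNA genes also kept away from, 321 lay away from the gap, 47 next to a developmental factor and 0 at a non-coding RNA gene, the last by construction. A width fold of 2 gave 241 wider in Vc+ cells and 44 in Vc− cells. Among regions away from the gap alone, a restriction chosen after seeing the data, 132 were wider in Vc+ cells, 35 in Vc− cells, 53 next to a developmental factor and 241 within 50 kb of another region. More regions were wider in Vc+ than in Vc− cells under each of these settings. All matched islands leaned the same way at a fold of 1.5, with 28.3% wider in Vc+ cells and 7.57% in Vc− cells. The shares of the regions and of all matched islands are not given under these settings, so the difference between those shares was not rechecked. Keeping the gene-table rows of other scaffolds, also added later, gave 1304 regions. Depth is unknown, so a limit of detection could not be set.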
